A study of Mus musculus with 104 samples.

Results

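Potassium channel genes are the genes whose symbols start with Kcn. They encode pore-forming subunits of potassium channels and the accessory proteins that assemble with them. All genes with such a symbol in the probe annotation were taken, with 1 probe set each, namely the one with the highest mean signal among those that name a single gene. This gave 84 genes of 18193 measured on Affymetrix mouse arrays, of which 81 are protein coding and 3 are non-coding RNAs. The study profiled 52 regions of the mouse nervous system and adjoining glands with 2 arrays each. The regions are the pineal gland, the retina, the pituitary and 49 regions of the brain and spinal cord, which were set against one another. All came from male Balb/c mice bought at 5 weeks of age, adapted for 2 weeks to 12 h of light and 12 h of darkness, and sampled at 7 to 8 weeks under that cycle or under constant darkness. The labels do not say which arrays came from which lighting, so a lighting difference cannot be told apart from a difference between regions. Tissue from time points 4 h apart over a day was pooled, and punches were taken with a 0.5-mm needle from 0.5-mm slices. No mutation or drug separated the groups. The labels do not say whether the 2 arrays of a region came from separate animals, so p-values measure only the spread between these arrays, which may be technical.

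Potassium channels let potassium ions leave a cell and so bring its membrane back towards rest. Voltage-gated channels shape and end action potentials, inward rectifiers and K2P leak channels set the resting potential, and calcium-activated channels follow firing. Channels are built from several subunits, and in the brain different neurons and glia are known to use different combinations.

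Values are log2 signals, so 1 unit is a 2-fold difference, and they show how 1 probe set differed between regions, not how much of one gene there was against another. Array medians ranged from 7.33 to 7.46. Correlations across genes between the 2 arrays of each region were 0.972 to 0.998, with a median SD of 0.0738 log2 units. The retina had the lowest of these correlations and the largest median SD, 0.170 log2 units. Of 25 pairs of a region and a textbook marker of it, the labelled region was highest in 14 and among the 3 highest in 23. The exceptions were Hcrt and Pmch, markers of the lateral hypothalamus, which ranked 13 and 14 in the region labelled so and were highest in the dorsomedial hypothalamus. The retina arrays held growth hormone mRNA (Gh) at 14.69, against 14.70 in the pituitary arrays, and 6 of 7 anterior pituitary markers there were at least 2-fold above the mean of the brain and cord. The retina means of 6 of 8 markers of meninges and fibroblasts and of all 7 photoreceptor markers were above by that margin too. Control probe sets of both arrays labelled POA/BF, the preoptic area with the basal forebrain, correlated at -0.43 and -0.44 with those of other arrays, whereas blocks of their gene rows correlated at 0.943 or more. In bulk tissue, fewer cells of a type and less RNA per cell cannot be told apart.

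Potassium channel genes differed widely between regions. In the limma F test, 67 of the 84 had an adjusted p under 0.05 and a range of region means of at least 1 log2 unit, beside 60.3% of all genes, and 83 passed at any range, beside 95.1%. The median range was 2.57 log2 units in the 84 genes and 1.24 in all genes. The widest ranges belonged to Kcnc2 (6.54 log2 units), Kcnd2 (6.53), Kcnj10 (5.97), Kcnip4 (5.89) and Kcnq3 (5.62). Within the brain and spinal cord alone, 64 genes spanned at least 1 log2 unit. Among the called potassium channel genes, the highest of all 52 regions was in the cerebellar cortex for 13.4% (5.85% of all called genes) and in the striatum for 13.4% (5.32%). It was in the hindbrain and cord for 10.4% (7.87%), the hippocampal formation for 10.4% (8.53%) and the thalamus for 8.96% (4.11%). The retina was highest for 8.96% (21%), and the hypothalamus, pineal gland and pituitary for 4.48% each (14%, 12.7% and 8.44%). The lowest of all 52 regions was the pineal gland for 22 genes, a hypothalamic region for 12 and the retina for 11. The hypothalamus holds 12 of the 52 regions, and these lowest counts were not made over all genes.

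**Figure D1:**
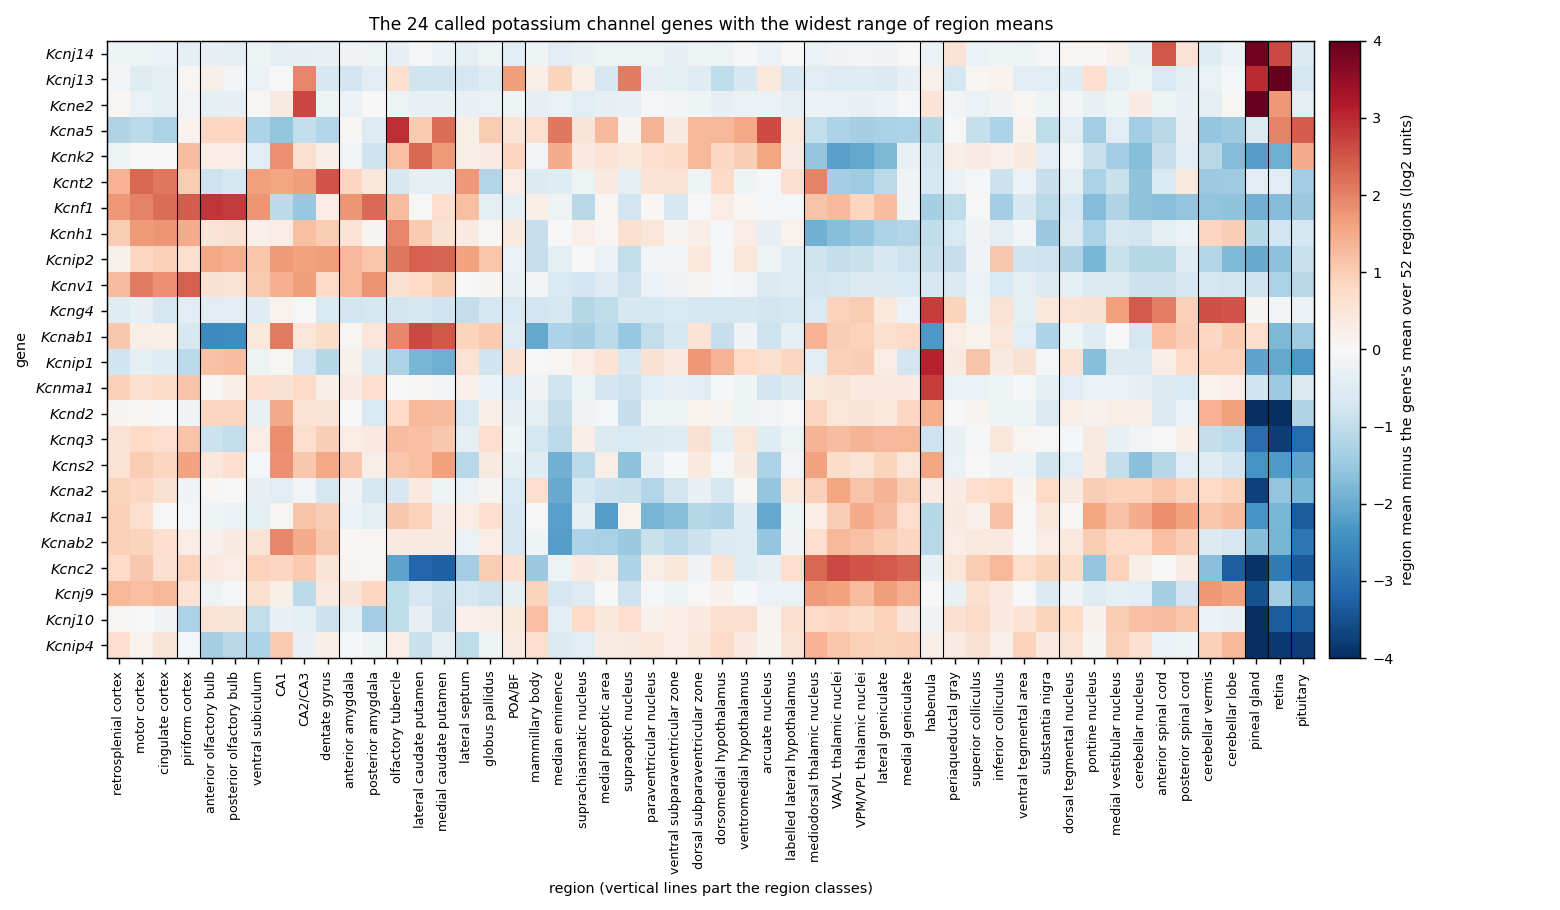
Region means of the 24 called potassium channel genes with the widest ranges (rows) in 52 regions (columns, grouped by class), each minus the mean of that gene over the 52 regions, in log2 units; red is higher and blue lower, and colours saturate at 4 units. Rows are ordered by similarity. Kcnc2 is red in the thalamus and blue in the striatum, and Kcnd2, Kcnj10 and Kcnip4 are blue in the pineal gland and retina.

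Each of 9 brain regions or region classes, and each of 3 organs, was then compared with the mean of the other brain and cord regions. Calls needed a limma adjusted p under 0.05 together with at least a 2-fold change, and all differences below are in log2 units. In the cerebellar cortex 12 potassium channel genes were higher (2.78% of all genes) and 10 lower (2.73%). In the thalamus 7 were higher (1.32%) and 5 lower (1.09%), or 58.3% of calls higher, which became 75% with array medians centred and 70% with quantile normalization. The striatum had 10 higher (2.23%) and 7 lower (2.23%), and the isocortex 9 higher (1.48%) and 1 lower (0.726%). In the habenula 7 were higher (1.87%) and 9 lower (1.01%). The hippocampal formation had 5 higher (1.76%) and 2 lower (0.885%), with 71.4% of calls higher, against 83.3% under either scaling. The hindbrain with spinal cord had 3 higher (0.984%) and 4 lower (0.654%). In the hypothalamus 1 was higher (0.967%) and 7 were lower (0.731%), and both counts were the same without the labelled lateral hypothalamus. The POA/BF had 1 higher (1.62%) and 0 lower (0.148%), with 14 higher and 29 lower at an unadjusted limma p under 0.05. The share of all genes at that unadjusted limit was not counted.

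In total 39 genes were called in at least 1 of the 9 brain comparisons (13.3% of all genes), and 23 of these were higher in one and lower in another (4.16% of all genes). The organs differed more, and mostly downward. The pineal gland had 5 higher (7.52% of all genes) and 30 lower (7.78%), the retina 9 higher (13.0%) and 32 lower (8.46%), and the pituitary 5 higher (6.10%) and 21 lower (7.24%). The median difference of the 84 genes was -0.51 log2 units in the pineal gland, -0.59 in the retina and -0.28 in the pituitary, beside 0.02, -0.05 and -0.00 over all genes. Centring array medians moved the retinal median over all genes to -0.23. These 12 comparisons share their reference arrays. Where a class holds several regions, a second fit took region means as samples, so that the spread between regions counted as error. It left 1 gene higher and 0 lower in the isocortex (78 and 9 of all 18193 genes) and 1 lower in the cerebellar cortex (240). It left 1 higher and 1 lower in the hippocampal formation (205 and 55), 4 lower in the striatum (259) and 2 lower in the thalamus (97). Counts for the directions and classes not named here are not given and are not to be read as 0. Not every member that lost its call there is named. Those described below carry that adjusted p.

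**Figure D2:**
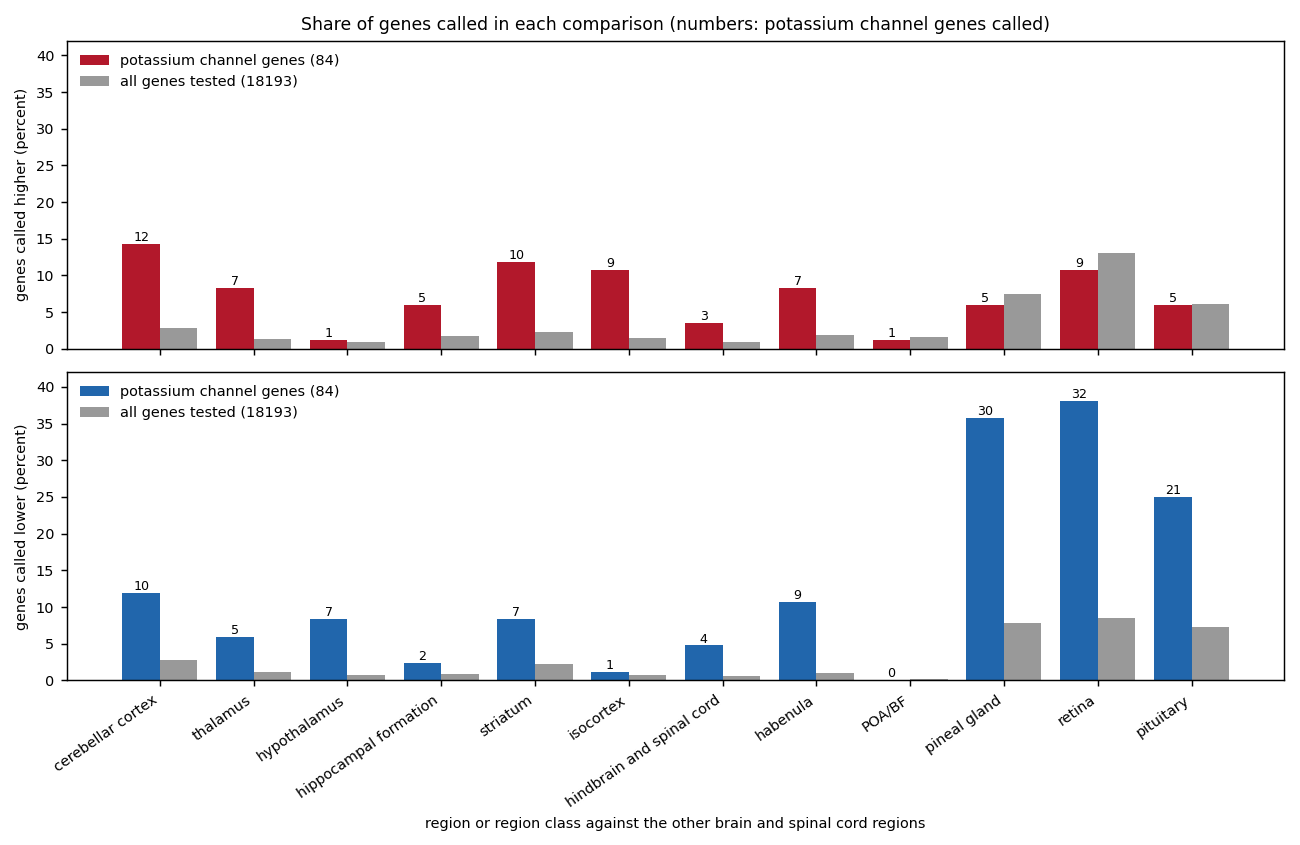
Percentage of the 84 potassium channel genes (coloured bars, with the number called above) and of all 18193 genes (grey bars) called higher (upper panel) or lower (lower panel) in each comparison. Coloured bars exceed grey ones most in the lower panel for the pineal gland (30 genes), retina (32) and pituitary (21).

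The Kv1 family (Kcna genes) forms low-threshold channels of axons and nerve terminals, and its cytoplasmic beta subunits are encoded by Kcnab genes. Kcna1, whose human counterpart is mutated in episodic ataxia, had its lowest brain arrays in the hypothalamus. Its hypothalamic arrays had a lowest value of 8.32, a median of 9.61 and a highest of 10.97, against 9.60, 11.34 and 12.61 in the other brain and cord arrays. None of the 74 other arrays lay below the lowest hypothalamic one and 26 lay below the highest, and the difference was -1.66 log2 units (SE 0.04, adjusted p = 2.37e-41). In the hindbrain and spinal cord the Kcna1 arrays ran from 10.72 through a median of 12.19 to 12.61, against 8.32, 10.88 and 12.26 elsewhere, a difference of 1.29 (SE 0.06, adjusted p = 3.36e-29). Of 3 other Kcna1 probe sets, 2 gave -1.93 and -2.07 in the hypothalamus, and the third gave -0.06 there and 0.10 in the hindbrain and cord. Myelin markers had a mean of 11.45 in the hindbrain and cord, against 10.17 elsewhere, with 6 of 9 at least 2-fold higher, and Kcna1 correlated with them at 0.55 over the 49 regions. Neuronal markers had a mean of 12.53 there, against 12.20, with 2 of 9 at least 2-fold higher, and Kcna1 correlated with them at 0.60. The part of either list in the hindbrain and cord calls was not tested.

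Kcnab2, a beta subunit of Kv1 channels, was also lower in the hypothalamus. Its hypothalamic arrays ran from 8.19 through 9.41 to 10.44, against 9.24, 10.88 and 12.49 in the other arrays, a difference of -1.49 (SE 0.03, adjusted p = 1.07e-44). Kcnab1 (-1.23), Kcna2 (-1.03) and Kcnab3 (-1.03) were lower there as well, so that 5 of the 7 genes lower in the hypothalamus encode Kv1 or its beta subunits. The other 2 were Kcnk1, a K2P channel (-1.04), and Kcng4, a silent subunit. Neuronal markers had a mean of 11.82 in the hypothalamus, against 12.38 elsewhere, and their part in these calls was not tested. Kcnab2 was highest in CA1, with 12.49 and 12.29. In the hippocampal formation it was higher by 1.24 (SE 0.05, adjusted p = 6.35e-30), a call lost with region means as samples (adjusted p = 0.0771).

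Kcna5 ran the other way. In the hypothalamus its arrays had a lowest value of 6.87, a median of 8.27 and a highest of 9.60, against 5.25, 5.99 and 10.08 in the rest of the brain and cord. It was the gene called higher there, by 1.61 (SE 0.05, adjusted p = 4.23e-36). It was also higher in the striatum by 2.30 (SE 0.10, adjusted p = 7.88e-31), where the olfactory tubercle reached 9.79 and 10.08 and the lateral caudate putamen 7.87 and 8.15. In the pituitary Kcna5 stood at 9.39 on both arrays, against 5.25, 6.70 and 10.08 as the lowest, median and highest of the 98 brain and cord arrays, a difference of 2.50 (SE 0.16, adjusted p = 2.14e-21). It was lower in the thalamus (-1.27), hippocampal formation (-1.27) and isocortex (-1.17). These 3 calls were lost with region means as samples (adjusted p = 0.1623, 0.2372 and 0.5537).

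Kcna2, a common partner of Kcna1 in axonal channels, was higher in the thalamus. Its thalamic arrays ran from 10.79 through 11.07 to 11.77, against 7.82, 10.01 and 11.15 elsewhere, and 16 of 88 other arrays reached the lowest thalamic one. The difference was 1.18 (SE 0.07, adjusted p = 5.48e-23), and 0.80 with all Kcna2 probe sets averaged. Kcnab1 was higher in the striatum, where the caudate putamen and olfactory tubercle ran from 12.22 through 12.78 to 12.94, against 7.76, 10.44 and 12.40 elsewhere. Only 2 of the 92 other arrays, both of CA1, reached the striatal range, and the difference was 2.45 (SE 0.07, adjusted p = 3.31e-40). In the habenula Kcnab1 was 8.16 and 7.86, lower by 2.39 (SE 0.11, adjusted p = 7.77e-27).

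The Kv3 family (Kcnc genes) allows neurons to fire at high rates. Kcnc2 separated the thalamus from the rest of the brain. Its 10 thalamic arrays ran from 11.69 through 11.86 to 12.13, against 5.94, 9.84 and 11.08 in the 88 other brain and cord arrays. The groups did not overlap, and the difference was 2.49 log2 units (SE 0.07, adjusted p = 1.42e-38). Myelin markers had a mean of 11.25 in the thalamus, against 10.23 elsewhere, with 5 of 9 at least 2-fold higher, and their part in the thalamic calls was not tested.

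The same gene was low in the striatum, with 7.03 and 7.69 in the olfactory tubercle, 5.94 and 6.62 in the lateral and 6.28 and 6.14 in the medial caudate putamen. The other brain arrays ran from 6.12 through 9.91 to 12.13, and the difference was -3.25 (SE 0.09, adjusted p = 1.62e-39). In the cerebellar cortex Kcnc2 was 7.98 and 7.58 in the vermis and 6.19 and 6.12 in the lobe, a difference of -2.82 (SE 0.11, adjusted p = 1.07e-31). Kcnc1, of the same family, was higher in that tissue by 1.22 (SE 0.07, adjusted p = 2.90e-22), with 12.19 and 12.06 in the vermis and 12.13 and 12.08 in the lobe. Its other probe sets were highest in the cerebellar lobe, the mediodorsal thalamus and the supraoptic nucleus. They correlated with the chosen one at 0.94, 0.42 and 0.03, and the last ranged over only 0.56. Kcnc4 was lower in the striatum, by 1.22 (SE 0.07, adjusted p = 3.12e-25), and by 0.47 on its other probe set.

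**Figure D3:**
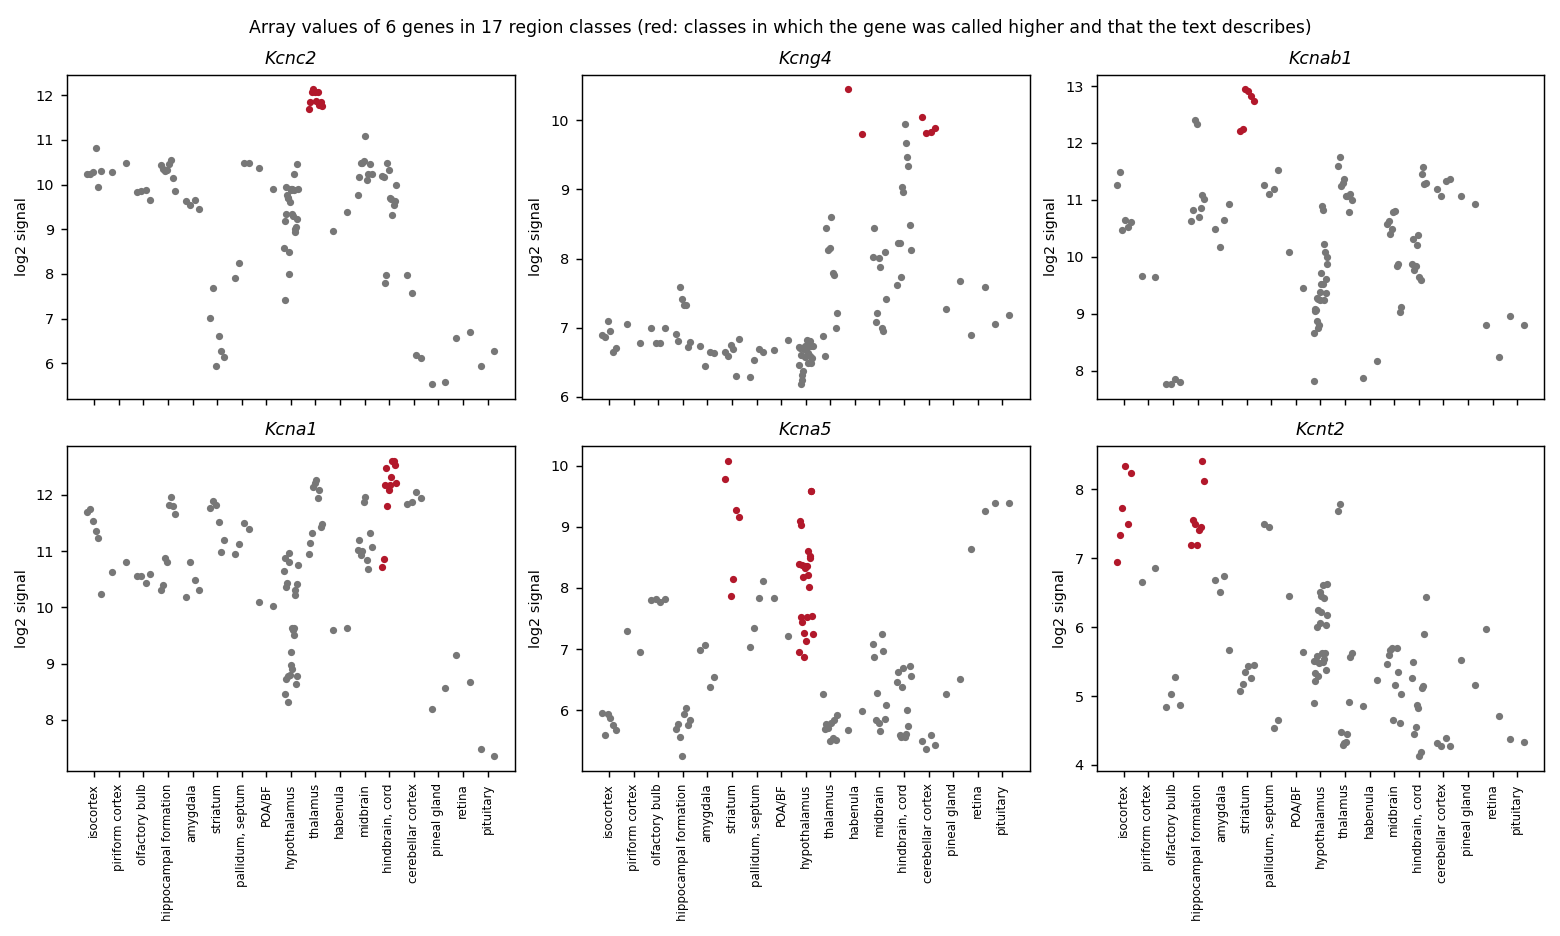
Log2 signal of every array (points) for 6 genes in 17 region classes. Red marks some of the classes in which the text describes a higher call. Kcng4 in the hindbrain and cord and Kcna5 in the pituitary were also called higher but are drawn grey. Thalamic Kcnc2 lies between 11.69 and 12.13, above all other arrays, and cerebellar Kcng4 between 9.82 and 10.04.

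Kv4 channels (Kcnd genes) carry the A-type current of dendrites, together with the calcium-binding KChIP proteins encoded by Kcnip genes. Kcnd2 was higher in the cerebellar cortex by 1.36 (SE 0.09, adjusted p = 6.90e-22) and in the habenula by 1.26 (SE 0.12, adjusted p = 1.08e-13). Kcnip2 was highest in the striatum, where its arrays ran from 12.27 through 12.57 to 12.82, against 8.31, 10.10 and 12.08 elsewhere. The groups did not overlap, with a difference of 2.33 (SE 0.07, adjusted p = 6.94e-39), and the other Kcnip2 probe sets gave 3.27 and 0.21. Kcnip2 was also higher in the hippocampal formation by 1.56, and lower in the cerebellar cortex by 1.62, in the hindbrain and cord by 1.38 and in the thalamus by 1.02. The hippocampal, cerebellar and thalamic calls were lost with region means as samples (adjusted p = 0.0802, 0.1541 and 0.2434).

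Kcnip1 had its highest level in the habenula, a small epithalamic nucleus that relays forebrain signals to the midbrain. The habenula arrays read 12.17 and 11.99, against 6.95, 9.24 and 10.72 as the lowest, median and highest of the other brain and cord arrays. Kcnip1 was higher there by 3.01 (SE 0.12, adjusted p = 3.29e-31), with no overlap, and its 3 other probe sets gave 2.77, 1.70 and 0.01. Choroid plexus markers had a mean of 8.58 in the habenula, against 7.16 elsewhere, and their part in the habenular calls was not tested. In the striatum Kcnip1 ran from 6.95 through 7.25 to 7.90, against 7.17, 9.33 and 12.17, a difference of -1.93 (SE 0.07, adjusted p = 5.60e-34).

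Kv7 channels (Kcnq genes) carry the M current, which restrains repeated firing. Kcnq3 was higher in the thalamus, where its arrays ran from 11.37 through 11.65 to 11.76, against 9.16, 10.31 and 12.20. The difference was 1.23 (SE 0.05, adjusted p = 2.09e-33). CA1 held the highest Kcnq3 arrays, 12.20 and 12.12. Kcnq5 was higher in the striatum by 1.93 and in the isocortex by 1.44, and lower in the cerebellar cortex by 1.41 and in the thalamus by 1.01. Except in the striatum, these Kcnq5 calls were lost with region means as samples (adjusted p = 0.1372, 0.0977 and 0.0989). Kcnq1, known for its role in the heart and inner ear, varied by 0.70 log2 units over all regions and was not called.

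The Kv10 to Kv12 families (Kcnh genes) include the ether-a-go-go and erg channels. All 6 Kcnh genes were called by the F test, beside 60.3% of all genes. Kcnh1 was lower in the thalamus, where its arrays ran from 6.93 through 7.39 to 8.14, against 7.35, 9.17 and 10.99, a difference of -1.75 (SE 0.05, adjusted p = 1.01e-37). It was higher in the isocortex by 1.54, a call lost with region means as samples (adjusted p = 0.1372). Kcnh8 was higher in the pituitary, at 9.49 and 9.60, against 6.04, 6.56 and 9.22 in the brain and cord, by 2.83 (SE 0.10, adjusted p = 1.51e-33). In the habenula Kcnh8 was 9.22 and 8.80, above all 96 other brain and cord arrays, with the suprachiasmatic nucleus next at 8.59 and 8.50, a difference of 2.34 (SE 0.10, adjusted p = 2.00e-28). Kcnh2, the erg channel of the heartbeat, was higher in the hindbrain and cord by 1.04 and lower in the hippocampal formation by 1.02, and the hippocampal difference was -0.98 with array medians centred.

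Silent Kv subunits (Kcnf, Kcng, Kcns and Kcnv genes) do not open on their own and modify Kv2 channels. All 9 were called by the F test, beside 60.3% of all genes. Kcng4 was higher in the cerebellar cortex, with 10.04 and 9.82 in the vermis and 9.82 and 9.89 in the lobe, against 6.18, 6.83 and 10.45 in the other brain and cord arrays. The difference was 2.64 (SE 0.10, adjusted p = 2.57e-33), and 2 of the 94 other arrays reached the cerebellar range. In the habenula Kcng4 was 10.45 and 9.80, higher by 2.82 (SE 0.14, adjusted p = 1.33e-26), and in the hindbrain and cord it was higher by 1.57 (SE 0.06, adjusted p = 8.25e-33).

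Kcnf1 and Kcnv1 were high in piriform cortex, amygdala and neocortex, and Kcnf1 was highest in the olfactory bulb. Kcnf1 was 10.56 and 10.65 in the anterior olfactory bulb, and its isocortical arrays ran from 9.25 through 9.80 to 9.98, against 5.96, 7.61 and 10.65. It was higher in the isocortex by 2.00, a call lost with region means as samples (adjusted p = 0.2119). Kcnf1 was lower in the hindbrain and cord by 1.73 (SE 0.06, adjusted p = 1.54e-35), in the cerebellar cortex by 1.77 and in the habenula by 1.45. The cerebellar call was lost with region means as samples (adjusted p = 0.1849). Kcnv1 was higher in the isocortex by 1.77 (SE 0.09, adjusted p = 9.41e-27) and in the hippocampal formation by 1.27, the second call lost with region means as samples (adjusted p = 0.0707).

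Channels gated by calcium or sodium (Kcnm, Kcnn and Kcnt genes) follow firing and shape the pause after it. Kcnma1, the pore of the large-conductance calcium-activated channel, was 12.78 and 12.67 in the habenula, against 8.87, 9.92 and 11.20 in the other brain and cord arrays. The groups did not overlap, and the difference was 2.75 (SE 0.14, adjusted p = 3.70e-25). Kcnt2, a sodium-activated channel, was higher in the hippocampal formation by 1.97 (SE 0.10, adjusted p = 6.19e-27), with 8.42 and 8.13 in the dentate gyrus, its highest region. In the isocortex Kcnt2 was higher by 2.01 and in the cerebellar cortex lower by 1.54, and both calls were lost with region means as samples (adjusted p = 0.079 and 0.1625). Kcnmb4, a beta subunit of the large-conductance channel, was lower in the hindbrain and cord, where its arrays ran from 8.00 through 8.53 to 9.07, against 8.09, 9.79 and 11.11. The difference was -1.18 (SE 0.05, adjusted p = 2.33e-31).

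Inward rectifiers (Kcnj genes) conduct best near the resting potential. Kcnj10 and Kcnj16 form the rectifier with which astrocytes take up potassium. Kcnj10 was 12.07 and 12.09 in the anterior spinal cord, its highest region, and was lower in the striatum by 1.06 (SE 0.06, adjusted p = 4.24e-25), a call lost with region means as samples (adjusted p = 0.0536). Kcnj16 was lower in the striatum too, running from 7.19 through 7.82 to 8.10, against 7.46, 8.92 and 9.91, a difference of -1.13 (SE 0.06, adjusted p = 8.72e-26). Astrocyte markers had a mean of 10.49 in the striatum, against 11.19 elsewhere, with 3 of 10 at least 2-fold lower, and their part in these calls was not tested. Over the 49 brain and cord regions Kcnj10 correlated with the mean of 10 astrocyte markers at 0.78 and Kcnj16 at 0.76.

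Kcnj9 and Kcnj3 encode subunits of the G protein-gated rectifier, which slows neurons when inhibitory receptors are active. Kcnj9 was higher in the thalamus, running from 10.16 through 10.45 to 10.92, against 7.57, 8.87 and 10.82, a difference of 1.55 (SE 0.06, adjusted p = 1.71e-32). In the cerebellar cortex it was higher by 1.58, a call lost with region means as samples (adjusted p = 0.0533), and its 3 other probe sets gave 1.505, 0.64 and -0.06. Kcnj4 was higher in the striatum, with arrays from 8.48 through 8.66 to 8.78, against 5.75, 6.22 and 8.77. The difference was 2.05 (SE 0.06, adjusted p = 6.31e-39), and 3 of 92 other arrays reached the striatal range.

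K2P channels (Kcnk genes) carry leak current. In the cerebellar cortex microglia and macrophage markers had a mean of 7.60, against 8.49 elsewhere, with 4 of 8 at least 2-fold lower. Oligodendrocyte precursor markers had a mean of 8.04 there, against 8.86, with 2 of 4 at least 2-fold lower, and the part of either list in the cerebellar calls was not tested. Of the 12 K2P genes 4 were higher in the cerebellar cortex, beside 2.78% of all genes, namely Kcnk10, Kcnk3, Kcnk1 and Kcnk12. Kcnk2 was lower there, a call lost with region means as samples (adjusted p = 0.1458). Kcnk10 was 9.33 and 9.28 in the vermis and 9.31 and 9.41 in the lobe, against 7.02, 7.71 and 8.24 in the other brain and cord arrays. The groups did not overlap, with a difference of 1.62 (SE 0.06, adjusted p = 2.28e-33). The cerebellar nuclei, counted with the hindbrain, had 7.57 and 7.74. Kcnk3, an acid-sensitive leak channel, did not overlap either, at 9.46 and 9.34 in the vermis and 9.45 and 9.53 in the lobe, against 7.05, 7.88 and 8.87, a difference of 1.58 (SE 0.07, adjusted p = 2.72e-28).

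Kcnk2, a leak channel opened by stretch and lipids, was highest in the lateral caudate putamen (12.18 and 11.94). It was lower in the thalamus, with arrays from 7.40 through 7.95 to 9.71, against 7.87, 10.05 and 12.18, by 1.82 (SE 0.06, adjusted p = 2.43e-36). In the pituitary Kcnk2 was 11.16 and 11.30, higher by 1.43 (SE 0.13, adjusted p = 1.15e-15), where 10 of 98 brain arrays reached its range. In the hindbrain and cord it was lower by 1.08, a call lost with region means as samples (adjusted p = 0.0849).

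In 8 genes, both arrays of 1 region lay above all others with that region at least 2-fold above the next, as in 5.71% of all genes. Kcnj13, Kcnj8, Kcnk6 and Kcnv2 had this pattern in the retina, Kcne2 and Kcnj14 in the pineal gland, and Kcnip1 and Kcnma1 in the habenula. Kcnj13, a rectifier known from the pigment epithelium of the eye and from choroid plexus, was 12.73 and 12.12 in the retina and 10.98 and 10.85 in the pineal gland, against 6.83, 7.55 and 10.12 in the brain and cord. It was higher in the retina by 4.64 (SE 0.16, adjusted p = 8.08e-36) and in the pineal gland by 3.13 (SE 0.16, adjusted p = 9.48e-27). Kcnj8, the pore of the vascular ATP-sensitive channel, was 9.07 on both retina arrays, against 6.57, 6.92 and 7.25 in the brain and cord, a difference of 2.15 (SE 0.08, adjusted p = 9.87e-33). Kcnk6, a K2P gene, was 9.22 and 9.14 in the retina and 8.16 and 8.20 in the pituitary, against 6.63, 7.23 and 7.79. Its retinal difference was 1.95 (SE 0.07, adjusted p = 4.67e-33). Kcnv2, a silent subunit of photoreceptors, was 6.78 and 7.86 in the retina, against 5.65, 5.96 and 6.38, and its retinal arrays differed by more than 1 log2 unit.

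Beside these retinal values stand those of other tissues on the same arrays. The mean of 8 meninges and fibroblast markers was 11.50 in the retina, against 7.00 to 10.23 in the brain and cord regions. The mean of 7 anterior pituitary markers was 11.22 there, against 6.59 to 8.50, and the mean of 9 endothelium and pericyte markers 10.51, against 8.45 to 9.86. The mean of 9 choroid plexus markers was 9.68 in the retina, against 6.75 to 9.39, with 7 of 9 at least 2-fold higher. In the pineal gland the meninges and fibroblast markers had a mean of 10.46, with 7 of 8 at least 2-fold higher. Their part in the retinal calls and in the pineal Kcnj13 call was not tested.

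Kcne2, an accessory subunit known from choroid plexus epithelium, was 10.15 and 10.12 in the pineal gland, against 5.30, 5.57 and 8.69 as the lowest, median and highest of 98 brain and cord arrays. The difference was 4.45 (SE 0.14, adjusted p = 8.66e-38). The next region was CA2/CA3, with 8.24 and 8.69. The mean of 9 choroid plexus markers was 10.69 in the pineal gland, against 6.75 to 9.39 in the brain and cord regions, and 8 of the 9 were at least 2-fold above the reference mean. Transthyretin (Ttr) was 14.68 in the pineal gland, against a mean of 9.90. The part of these cells in the Kcne2 value was not tested.

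Kcnj14 was 9.72 and 9.78 in the pineal gland, against 5.31, 5.66 and 8.37 in the brain and cord, a difference of 3.99 (SE 0.11, adjusted p = 6.96e-40). In the retina it was 7.89 and 9.13, higher by 2.75 (SE 0.11, adjusted p = 1.79e-31). The anterior spinal cord came next, at 8.33 and 8.37. In the POA/BF the only member called was Kcnj13, at 9.59 and 9.58, against 6.83, 7.53 and 10.12, higher by 1.84 (SE 0.16, adjusted p = 4.45e-15). There the meninges and fibroblast markers had a mean of 10.23, against 7.00 to 10.23 in the other brain and cord regions, and 7 of 8 were at least 2-fold above the reference mean. Their part in the Kcnj13 value was not tested.

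**Figure D4:**
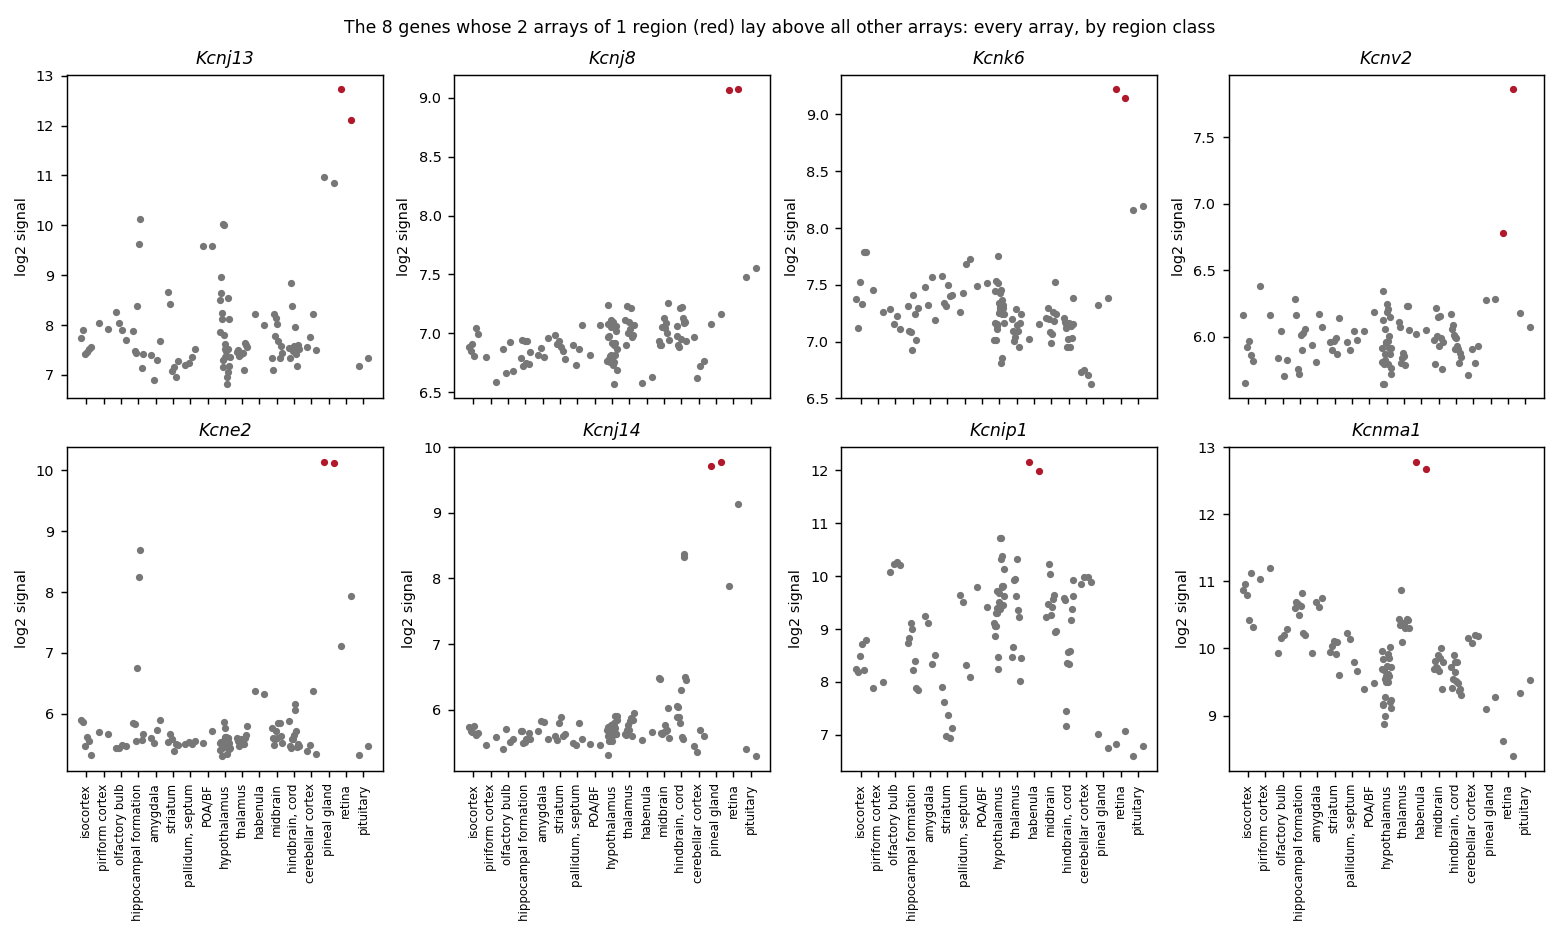
Log2 signal of every array (points) for the 8 genes whose 2 arrays of 1 region (red) lay above all others, by region class. Retinal Kcnj13 reads 12.73 and 12.12, pineal Kcne2 10.15 and 10.12, and habenular Kcnma1 12.78 and 12.67; the 2 retinal points of Kcnv2 lie apart at 6.78 and 7.86.

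Of the 8 genes with 1 standout region, 5 had an entry in a RefSeq promoter table (build GRCm38.p6). The 250 bases before the annotated start are printed for 4 of them, to show how unlike the starts of genes with such a pattern are. Capitals mark CG dinucleotides, which cluster in CpG island promoters.
Kcnj13 (chr1:87394730-87394979, minus strand): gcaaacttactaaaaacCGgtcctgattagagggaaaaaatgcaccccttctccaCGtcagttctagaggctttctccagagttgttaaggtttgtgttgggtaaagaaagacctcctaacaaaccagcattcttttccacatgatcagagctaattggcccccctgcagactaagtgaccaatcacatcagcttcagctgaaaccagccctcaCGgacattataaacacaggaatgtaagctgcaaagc
Kcnj8 (chr6:142571615-142571864, minus strand): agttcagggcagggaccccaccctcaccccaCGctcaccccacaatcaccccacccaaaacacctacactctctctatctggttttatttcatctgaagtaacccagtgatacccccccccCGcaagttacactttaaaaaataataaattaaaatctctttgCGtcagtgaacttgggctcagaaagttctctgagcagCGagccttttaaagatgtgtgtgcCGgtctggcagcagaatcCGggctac
Kcne2, entry 1 of 2 (chr16:92292139-92292388, plus strand): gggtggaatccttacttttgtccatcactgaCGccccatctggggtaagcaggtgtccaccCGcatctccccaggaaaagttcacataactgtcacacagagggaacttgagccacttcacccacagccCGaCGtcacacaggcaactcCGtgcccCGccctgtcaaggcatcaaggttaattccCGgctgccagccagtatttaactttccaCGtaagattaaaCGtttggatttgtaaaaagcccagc
Kcnma1 (chr14:24004206-24004455, minus strand): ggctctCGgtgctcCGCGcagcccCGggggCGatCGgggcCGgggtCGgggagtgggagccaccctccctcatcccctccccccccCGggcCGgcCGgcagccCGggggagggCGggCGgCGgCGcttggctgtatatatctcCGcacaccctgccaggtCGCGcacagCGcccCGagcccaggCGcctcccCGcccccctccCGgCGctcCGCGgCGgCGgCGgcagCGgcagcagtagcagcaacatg

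Kcnma1 had 31 CG dinucleotides in its 250 bases, against 9 in this Kcne2 window, 6 in that of Kcnj8 and 3 in that of Kcnj13. The second Kcne2 entry had 1, and the 3 entries of Kcnip1 had 6, 12 and 3. The median was 7 over the 89 windows of potassium channel genes and 6 over all 32851 windows. Exactly 3 motifs were searched on both strands, all chosen after the values were known. TAATCC, the core of photoreceptor homeobox sites, was in none of the 8 windows of these 5 genes, in 1.12% of the potassium channel windows and in 6.25% of all. TATAAA, the TATA box, was in the Kcnj13 window alone of the 8, in 3.37% of the potassium channel windows and in 12.4% of all. TGACGTCA, the cyclic AMP response element, was in none of the 89 windows and in 1.55% of all. A match or its absence says nothing about binding.

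Most of the genes that differed in the 3 organs were low there, and 17 were called lower in all of them (3.57% of all genes), among them Kcna1, Kcna2, Kcnab2, Kcnc1, Kcnc2, Kcnd2, Kcnip4, Kcnj10, Kcnj16 and Kcnq3. Kcnd2 was 5.85 and 5.87 in the pineal gland, against 9.77, 10.88 and 12.46 in the brain and cord, a difference of -5.11 (SE 0.12, adjusted p = 2.41e-44). Its 3 other probe sets gave -3.85, -3.94 and -0.13 there. Kcnj10 was 6.09 and 6.15 in the pineal gland, against 9.43, 11.24 and 12.16, a difference of -4.96 (SE 0.10, adjusted p = 9.56e-49). Kcnip4 differed by -4.75 in the pineal gland and -4.09 in the retina (SE 0.12 each).

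Of the 84 genes, 0 were called higher in all 3 organs (1.41% of all genes). Kcnq3 was 6.61 and 6.47 in the retina, against 9.16, 10.51 and 12.20, a difference of -3.96 (SE 0.10, adjusted p = 2.06e-43). The mean of 9 neuronal markers was 9.75 in the pineal gland, 9.31 in the retina and 9.88 in the pituitary, against 10.73 to 12.83 in the brain and cord regions. Of these markers 9 were at least 2-fold lower in the retina, 8 in the pituitary and 4 in the pineal gland. In the pineal gland the 4 were Rbfox3, Stmn2, Nefl and Nefm, while Syp differed by 0.48, Snap25 by 0.02, Eno2 by -0.16, Map2 by -0.39 and Syt1 by -0.51. The mean of 10 astrocyte markers was 8.88, 9.53 and 8.31 in these organs in the same order, against 10.25 to 12.18. Their part in the lower calls was not tested. Kcnd3, a Kv4 pore, was higher in the pineal gland, at 11.43 and 11.51, by 1.31 (SE 0.11, adjusted p = 8.46e-17), and by 0.88 with its probe sets averaged. Kcnmb2, a beta subunit of the large-conductance channel, was higher in the pituitary, at 9.27 and 9.37, against 7.26, 7.95 and 8.64, by 1.39 (SE 0.10, adjusted p = 6.05e-20).

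Subunits known to form 1 channel were listed as 26 pairs, of which 19 were measured. Over the 49 brain and cord regions their median correlation was 0.48. Some of these pairs hold genes outside the called members, and the 12 pairs within them had a median of 0.51, beside 0.05 over all 2211 pairs of called members. These are descriptions, since neighbouring regions share cell types. Kcnj10 and Kcnj16 correlated at 0.84, Kcna1 and Kcna2 at 0.77, and Kcna1 and Kcnab2 at 0.76. Kcnj8 and its sulfonylurea receptor Abcc9 correlated at 0.71, Kcnj3 and Kcnj9 at 0.68, and Kcnj11 and Abcc8 at 0.64. Without the 2 regions farthest from the median of the first gene these 6 values ran from 0.63 to 0.87. Kcna2 and Kcnab2 correlated at 0.65, and at 0.54 without the median eminence and arcuate nucleus. Kcnj11 was not called by the F test, with a range of 0.62 log2 units.

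Other pairs moved less alike. Kcnd2 correlated at 0.21 with Kcnip4 and at 0.16 with Kcnip2. Kcnc1 and Kcnc2 correlated at 0.37, and at 0.66 without the vermis and lobe of the cerebellum. Kcnk2 and Kcnk4, leak channels with similar gating, correlated at -0.41, and at -0.21 without the VA/VL and VPM/VPL nuclei. Kcnmb4 correlated with Kcnma1 at 0.54. Of all pairs of called members, Kcnh3 and Kcnj4 were the most alike, at 0.90, with a Spearman rho of 0.59.

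Of 9 pairs of members that neighbour each other in the genome, 5 correlated below 0 and 4 above it. Kcna5 and Kcna1, with no protein-coding gene between them, correlated at -0.58 over the 49 regions. Kcna3 and Kcna2 correlated at -0.42, and Kcnj9 and Kcnj10 at -0.06, while Kcna1 and Kcna6 correlated at 0.29. Kcnj6 and Kcnj15 correlated at 0.63, but neither was called by the F test, with ranges of 0.64 and 0.46 log2 units, and Kcnj15 was dim in every region. Each neighbouring pair not named here also held a gene that was not called. Kcne2 correlated with the choroid plexus markers at 0.88 over the 49 regions, and at 0.59 without CA2/CA3 and the habenula, and its Spearman rho was 0.37. Kcnj13 correlated with the meninges and fibroblast markers at 0.77, and at 0.62 without the POA/BF and supraoptic nucleus. Kcnk13, a leak channel, correlated with the myelin markers at 0.64, and Kcnab2 with the neuronal markers at 0.78.

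**Figure D5:**
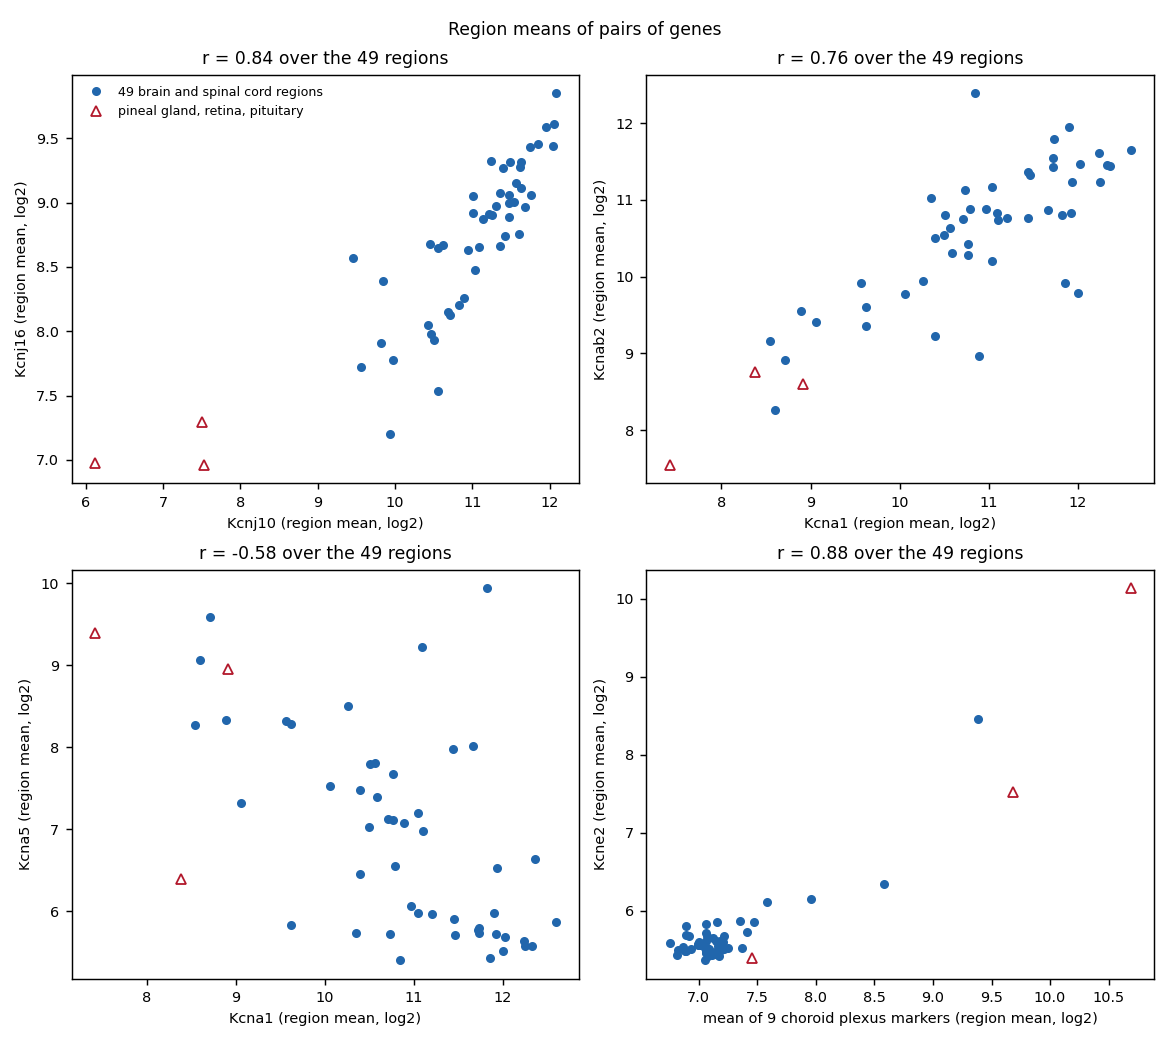
Region means (log2 signal) of 4 pairs; circles are the 49 brain and cord regions and triangles the pineal gland, retina and pituitary, which were left out of r. Kcnj16 increases with Kcnj10 (0.84), Kcnab2 with Kcna1 (0.76), and Kcna5 decreases with Kcna1 (-0.58); Kcne2 follows the mean of 9 choroid plexus markers (0.88), with CA2/CA3 farthest from the other circles.

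Proteins that assemble with potassium channels outside the Kcn symbols were followed as 14 genes. In at least 1 of the 9 brain comparisons 3 of the 14 were called, beside 13.3% of all genes. Dlg4, a scaffold that binds Kv1 and inward rectifier channels, was higher in the striatum by 1.18 and differed by -1.07 in the POA/BF. Dpp10, a Kv4 partner, was lower in the hippocampal formation by 1.57, and Cntnap2, which holds Kv1 channels beside the node of Ranvier, was lower in the cerebellar cortex by 1.19 and higher in the habenula by 1.04. In the pineal gland 9 were lower (7.78% of all genes) and 1 higher (7.52%). In the retina 8 were lower (8.46%) and 2 higher (13.0%), and in the pituitary 8 were lower (7.24%) and 0 higher (6.10%). Lrrc38, a gamma subunit of the large-conductance channel, was higher in the pineal gland by 3.67 (SE 0.10, adjusted p = 7.28e-41), and Lrrc26, another, was higher in the retina by 3.83 (SE 0.16, adjusted p = 2.67e-31).

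In 12 genes no region mean reached 7.39, the median over the whole table, and such signals may not stand clear of background. Of these, Kcnv2, Kcnk15, Kcnk5, Kcnmb4os2 and Kcnu1 were still called by the F test. The other 7 were Kcnj2, Kcnn3, Kcnj1, Kcnmb4os1, Kcne3, Kcnj15 and Kcne1. Probe sets of 1 gene could disagree, and 46 of the 84 genes had several. Of 83 probe sets not chosen, 61 correlated above 0.5 with the chosen one. Kcnj6 was not called on its chosen probe set, with a range of 0.64, while another ranged over 1.60. For Kcnj3 the chosen probe set ranged over 1.83, and another, highest in CA1, over 5.45.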

How the data were processed

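The authors deposited log2 expression values for 45101 probe sets, made with RMA per the submitters' processing notes; no version is given in the sources used here. Probe sets were named from the platform annotation: 34945 had 1 gene symbol, 932 several and 9160 none, and 64 were controls. The values were used as deposited. limma 3.58.1 in R 4.3.3 fitted a mean for each of 52 regions (lmFit, eBayes; 52 residual and 7.87 prior degrees of freedom), and p-values were Benjamini-Hochberg adjusted over 18193 genes. All tests are two-sided. Named were the 24 called genes with the widest ranges, up to 4 called genes per direction and comparison, genes with 1 standout region, subunit pairs and dim genes. The members, gene lists and comparisons were chosen with earlier results of these data known. The fit was tested on simulated data. Alternatives were other probe sets, scaling, a replicate block, region means as samples and leaving out arrays. Array number limits the precision.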

Additional observations from a re-analysis of the deposited data

How the results depend on the processing

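The counts of called genes kept within 1.5 times of their values under most settings. Dropping the 2-fold limit raised the higher calls to 25 in the cerebellar cortex, 40 in the thalamus, 14 in the hypothalamus, 33 in the hippocampal formation, 27 in the striatum, 41 in the isocortex, 24 in the hindbrain and cord, 19 in the habenula, 11 in the POA/BF, 11 in the pineal gland and 13 in the pituitary. It raised the lower calls to 42, 23, 49, 26, 29, 12, 31, 29, 24, 57 and 46 in the same places, and to 62 in the retina. Shares of all genes without the 2-fold limit were not counted for these comparisons, and 95.1% of all genes passed the F test at any range. These counts are therefore no result about potassium channel genes. With region means as samples, 1 gene stayed higher and 1 lower in the hippocampal formation, and 1 higher and 0 lower in the isocortex. There stayed 1 lower in the cerebellar cortex, 4 lower in the striatum and 2 lower in the thalamus. The counts over all genes stand above, and directions and classes not named have no count given. With the probe sets of a gene averaged, 3 genes were higher in the pineal gland, 3 lower in the striatum and 1 lower in the POA/BF. Centred medians and quantile normalization each gave 3 lower in the thalamus and 1 in the hippocampal formation. Leaving out 1 array gave 1 to 2 lower genes in the hippocampal formation, with 1 without CA1 replicate 1 or dentate gyrus replicate 2, and 0 to 1 in the POA/BF, with 1 without replicate 1. Single probe sets near 0 had the other sign, for Kcna1 in the habenula (0.0015) and pituitary (0.1333) and for Kcnj9 in the cerebellar cortex (-0.0605). That Kcna1 probe set did not differ detectably between regions (range 0.40, limma F test adjusted p = 0.2993), so it shows no opposite direction. The causes were not tested. Correlations of deviations ran from -0.50 to 0.52 over 1326 pairs of regions, with a median of -3.85e-04 and 327 pairs over 0.1. The replicate numbers thus did not pair the arrays throughout, but arrays of different regions may share part of their spread, which was not tested. The fit with the replicate block left 67 genes called among the regions. With 2 arrays a region, a single array could not be judged apart, and dim probe sets may lie near background.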
